A study of Homo sapiens with 5 samples.

Results

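The proteins of the cytosolic ribosome were followed here at the level of their messenger RNAs, in MDA-MB-231 cells given fluvastatin or water. The members are all genes whose symbol on the array's annotation is RPL or RPS followed by a number and at most an A or X, together with RPLP0, RPLP1, RPLP2 and RPSA. The annotation paired 113 probes with 68 such genes, 43 of the large (60S) subunit and 25 of the small (40S) subunit. A gene was kept where a probe had a detection p-value under 0.05, the array software's measure of signal above background, on at least 2 independent arrays. That left 67 of the 12080 genes kept in all, each represented by its brightest probe. RPLP0, RPSA and RPS27A were not analysed here. The remaining member, RPL10, whose protein is among the last to join the 60S subunit, was not well above background on any array with either of its 2 probes.

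The line is an established one from human breast cancer, labelled as basal and without the estrogen receptor. Cultures had 24 h of 10 µM fluvastatin, an inhibitor of HMG-CoA reductase in the mevalonate pathway, or 24 h of sterile water as mock control. All were grown in the same serum-supplemented medium. The groups were taken from titles and characteristics, because the protocol text under both groups describes the mock control. The labels give 2 fluvastatin and 3 control samples of 1 cell line on Illumina bead arrays. Whether each came from its own culture is not said, and every p-value therefore rests on a sample-to-sample spread that may be technical.

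Control replicate 2 equalled the mean of control replicates 1 and 3 in 47231 of 47231 probes, in signal (to within 1e-06) and in detection p-value (to within 1e-05), and was left out. The comparison is thus 2 fluvastatin arrays against 2 control arrays. Of all probes, 46.9% and 44.9% were detected on the fluvastatin arrays, against 46.1% and 43.0% on the control arrays. The markers fixed for the line were in place in part. VIM, CD44, MSN, CAV1 and AXL were detected on all 4 arrays, and ESR1, PGR and CDH1 on 0. ERBB3, GATA3, KRT8 and EPCAM, listed as low or absent, were detected on all 4. Bulk RNA cannot tell fewer cells of a type from less RNA per cell, and equal RNA input makes every value relative to the other transcripts.

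A ribosome holds 1 copy of nearly every ribosomal protein, so cells make these proteins in matched amounts. In vertebrates much of that matching is set at translation. The messages carry a 5' terminal oligopyrimidine tract (TOP), a C at the cap followed by an unbroken run of C and T, through which the kinase mTOR and the RNA-binding protein LARP1 control how much of the message is translated. The messages are among the most abundant and most stable of a proliferating cell.

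That feature, which the choice of members did not use, can be read in the RefSeq promoter table (GRCh38.p14), which held 57 of the 67 genes under 66 annotated transcription starts. RPL23, RPL23A, RPL30, RPL37, RPL5, RPL7, RPL8, RPS15A, RPS2 and RPS20 were not matched. A C at the start followed by at least 4 pyrimidines was found in 42 of 57 genes (73.7%), against 988 of 15843 protein-coding genes in the table (6.24%). Per entry, the share was 63.6% of the 66 member starts and 4.07% of all 35116 entries. The run of pyrimidines in the 42 genes had a median length of 8 bases and a range of 5 to 19. The 30 bases around the start are printed for the members with the most negative and most positive changes in the table and for members with well-known roles. Each window holds 15 bases before the start and 15 from it on, and capitals mark the run of C and T that begins with a C at the start, where that run is long enough to count.
RPL36A (chrX:101390996-101391025, plus strand): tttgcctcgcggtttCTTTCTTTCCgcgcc
RPL29 (chr3:51995881-51995910, minus strand): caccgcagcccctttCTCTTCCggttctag
RPS7 (chr2:3575245-3575274, plus strand): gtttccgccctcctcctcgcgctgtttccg
RPL34 (chr4:108620561-108620590, plus strand): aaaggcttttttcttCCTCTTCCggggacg
RPL35 (chr9:124861943-124861972, minus strand): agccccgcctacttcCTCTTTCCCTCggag
RPS9 (chr19:54200843-54200872, plus strand): gtggcgcttccgcgcCTCTTTCTCagtgac
RPL13A (chr19:49487593-49487622, plus strand): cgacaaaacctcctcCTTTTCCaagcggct
RPL12 (chr9:127451392-127451421, minus strand): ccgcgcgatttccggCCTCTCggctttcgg
RPLP2 (chr11:809952-809981, plus strand): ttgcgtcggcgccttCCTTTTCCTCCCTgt
RPL11 (chr1:23691791-23691820, plus strand): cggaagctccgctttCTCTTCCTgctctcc
RPS6 (chr9:19380222-19380251, minus strand): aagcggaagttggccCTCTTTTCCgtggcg
RPS14 (chr5:150449725-150449754, minus strand): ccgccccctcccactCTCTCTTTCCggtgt
RPS19 (chr19:41860240-41860269, plus strand): ggaaaccccgtcgttCCCTTTCCCCTggct
RPL41 (chr12:56116618-56116647, plus strand): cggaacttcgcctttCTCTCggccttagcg
RPS26 (chr12:56041903-56041932, plus strand): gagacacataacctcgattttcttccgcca
RPS4X (chrX:72277234-72277263, minus strand): gcagtctccagccccaatttctacgcgcac

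RPL36A and RPL29, which fell, show the tract at the annotated start, as do RPS9, RPL13A and RPL12, which had positive changes that did not pass. RPS7 breaks off after 3 pyrimidines, and RPS26 and RPS4X begin with another base at the start that RefSeq gives. The median log2 fold change was -0.13 in the 42 genes with the tract at an annotated start, of which 2 fell. It was -0.18 in the 15 without it there, of which 1 fell, where 9.65% of all genes measured fell. Some windows of these 15, such as that of RPS26, hold a run of C and T a few bases past the start. The split therefore follows the annotated start and does not tell which messages lack a tract. A further motif, CCGGAA on either strand, the core of the site bound by ETS-family factors, was found in 32 of 57 member genes (56.1%) and in 26.6% of protein-coding genes. On the opposite strand it reads TTCCGG and can share bases with the end of the tract, as in RPL29. CACGTG, the palindromic E-box bound by MYC among others, was found in 4 of 57 (7.02%) against 10.9%, and TATAAA, searched on both strands, in 4 of 57 (7.02%) against 12.4%. Those shares are per gene over the whole promoter entries of the table.

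The comparison asks which ribosomal protein transcripts differed after fluvastatin. RPL36A, RPL29 and RPS7 fell, 0 of the 67 members rose and 64 did not pass (adjusted p under 0.05 by limma over all 21986 probes kept). Their share of calls was 4.48%, beside 20.1% of all genes called in either direction and 9.65% called lower. Of all genes, 1265 rose and 1166 fell, a split that became 2089 higher and 590 lower under median scaling of all probes, where 0 members rose and 3 fell. The median log2 fold change over the members was -0.13, against 0.01 over all genes, with 46 members negative and 21 positive. The count of negative members was 35 under median scaling of all probes and 56 under median scaling of the probes detected on all 4 arrays. In the main fit the median was -0.07 for the 25 proteins of the 40S subunit and -0.15 for the 42 of the 60S subunit. At an unadjusted p under 0.05, 4 members passed (5.97%), beside 40% of all genes.

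Most members lay close to their control level. In 60 of 67 (89.6%) the log2 fold change was under 0.5 in size, against 63.0% of all genes. The 95% interval of the change, from the same fit and not adjusted for the number of genes, lay within 2-fold in both directions for 58 of 67 members (86.6%), against 64.3% of all genes. Both shares were nearer to the members' among the 461 other genes as bright as most members (mean log2 value of at least 12), at 81.1% under 0.5 in size and 84.4% with the interval within 2-fold. The exceptions among the members were RPL36A, RPL29, RPS7, RPL34, RPL35, RPL23, RPL7, RPS18 and RPS28, and each of their intervals reached below a log2 fold change of -1. Groups did not overlap in 46 members, 35 lower and 11 higher with fluvastatin. This is a share of 68.7%, beside 69.6% of all genes, of which 33.7% were lower and 35.9% higher.

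**Figure D1:**
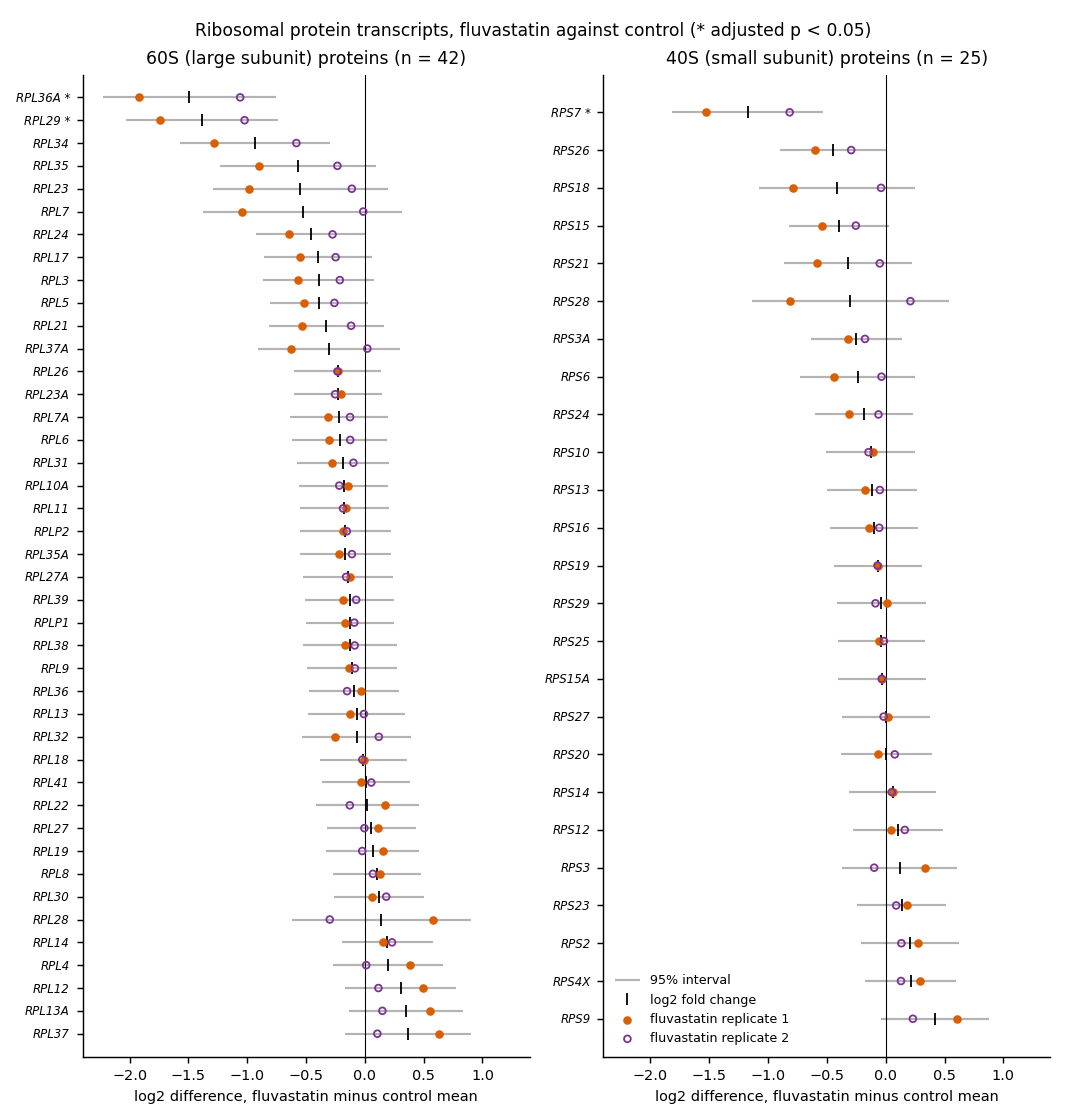
Log2 difference of each of the 67 ribosomal protein genes from the control mean, for the 2 fluvastatin arrays (points), with the fitted log2 fold change (tick) and its 95% interval (grey line), 60S proteins on the left and 40S proteins on the right. Stars mark RPL36A, RPL29 and RPS7, which passed; most points lie within 0.5 of 0, and filled points (fluvastatin replicate 1) lie farther out than open ones in most of the genes at both ends.

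Brightness moved with these counts and has to be read beside them. The members gave some of the strongest signals on the arrays, with a median normalized log2 value of 13.87 over the 67 genes, against 7.92 over all genes. No member reached the limit of a 16-bit scan on any array (65535). The brightest probe of any gene read 34839.3 and 31228.6 on the fluvastatin arrays, against 29086 and 26591.9 on the control arrays, each value held by 1 probe only. The 100 brightest probes of each array lay within 1.36- to 1.47-fold of the top value. Among the 54 members with a mean log2 value of at least 12, 0 passed in limma, with 0 at an unadjusted p under 0.05 as well. Among the 461 other genes in that range, 42 passed (9.11%), 17 higher and 25 lower, and 128 (27.8%) had an unadjusted p under 0.05. Among the 13 members below it, 3 passed (23.1%), all of them lower. Of the 11552 other genes below it, 20.7% passed in either direction, 1248 higher and 1138 lower. The value of 12 was chosen after the values were seen, and compression of bright signals was not tested.

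**Figure D2:**
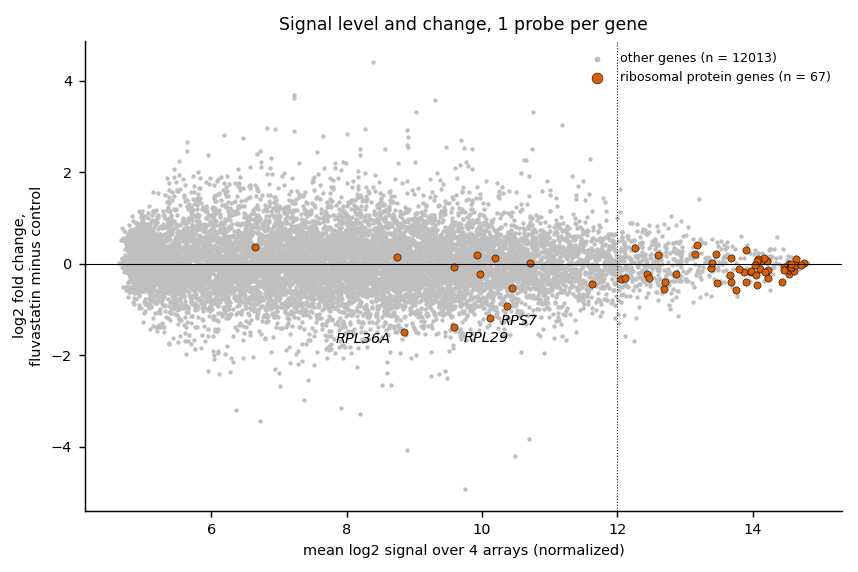
Mean normalized log2 signal over the 4 independent arrays (x axis) and log2 fold change, fluvastatin minus control (y axis), for 12013 other genes (grey) and 67 ribosomal protein genes (orange). RPL36A, RPL29 and RPS7 lie below a mean of 12 (dotted line), while 54 members lie above it within 0.57 of 0.

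RPL36A encodes a 60S protein close to the site where the deacylated tRNA leaves. Its normalized log2 values were 7.67 and 8.54 with fluvastatin, against 9.57 and 9.63 in controls. Both fluvastatin arrays lay below both controls, also in the signals as deposited (299.2 and 452.1 with fluvastatin, against 815.8 and 631.2 in controls). The log2 fold change was -1.49 ± 0.30 (SE, adjusted p = 0.0280 by limma, n = 2 each). A second probe of RPL36A was detected on 1 array and was not tested.

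RPL29 is a 60S protein at the subunit's surface, known also as a heparin-binding protein. Its log2 values were 8.54 and 9.26 with fluvastatin, against 10.32 and 10.25 in controls. The groups were apart, with fluvastatin replicate 1 the lower of the treated arrays, and the log2 fold change was -1.38 ± 0.26 (SE, adjusted p = 0.0249 by limma). A second probe gave -1.30 ± 0.23 (adjusted p = 0.0226 by limma). RPL29 was thus lower on both of its probes, which were about equally bright.

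RPS7, a 40S protein needed to process the 5' side of the small-subunit rRNA, had log2 values of 9.18 and 9.89 with fluvastatin, against 10.66 and 10.75 in controls. Its groups did not overlap either, and the log2 fold change was -1.17 ± 0.26 (SE, adjusted p = 0.0362 by limma). Its second probe fell by 0.99 on the log2 scale (adjusted p = 0.0391 by limma). RPS7 is mutated in some families with Diamond-Blackfan anaemia, an inherited failure of red cell production. It was the 1 gene past the threshold among 16 measured ribosomal protein genes known from that disease, whose median was -0.18. That is 6.25% of them, beside 9.65% of all genes called lower.

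These calls, though not the sizes of the changes, rest on both controls. Without control replicate 1 or without control replicate 3, 0 members passed by limma, at adjusted p-values of 0.0983 to 0.168 for RPL36A, RPL29 and RPS7. In each case 4 members had an unadjusted p under 0.05, beside 22.0% and 21.3% of all genes, of which 225 and 178 passed. The log2 fold changes were then -1.51 and -1.45 for RPL36A, -1.33 and -1.41 for RPL29, and -1.22 and -1.12 for RPS7. Without fluvastatin replicate 1 the same 3 genes passed, at -1.07 for RPL36A, -1.04 for RPL29 and -0.83 for RPS7. Without a filter on dim probes 0 members passed (adjusted p = 0.0575 to 0.0792 by limma for these genes). Without fluvastatin replicate 2, where 37.3% of genes passed, 18 members did, 16 lower and 2 higher.

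**Figure D3:**
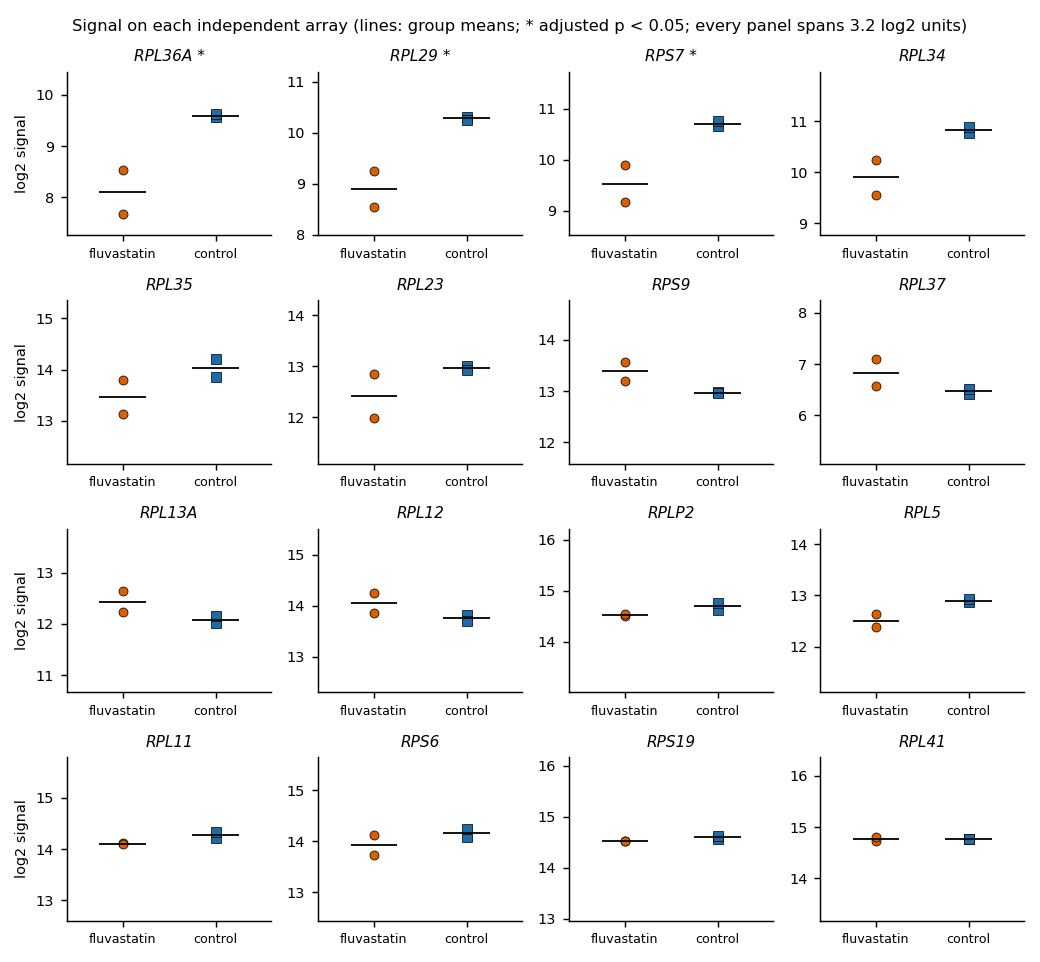
Normalized log2 signal on each independent array for 16 members, fluvastatin on the left and control on the right of each panel, with group means as lines. All panels span the same range of log2 units; RPL36A, RPL29, RPS7 and RPL34 show groups well apart, while RPL11, RPS19 and RPL41 lie nearly level.

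Other 60S proteins had lower values that did not pass. RPL34 read 9.55 and 10.25 with fluvastatin, against 10.77 and 10.89 in controls. This gave a log2 fold change of -0.93 ± 0.26 (SE, adjusted p = 0.0605 by limma), just outside the threshold, and -0.38 on a dimmer probe. RPL34 passed, among other settings, with the authors' values (adjusted p = 0.0288 by limma), without background correction (0.0296) and with an offset of 50 (0.0327). More genes passed under the settings named, 26.9% to 27.5% of all genes, against 20.1% in the main fit. RPL35, which sits beside the exit of the nascent-chain tunnel, read 13.14 and 13.80 with fluvastatin, against 13.86 and 14.21 in controls (log2 fold change -0.57 ± 0.27). RPL23, part of a bridge between the subunits, read 11.97 and 12.85 with fluvastatin, against 13.00 and 12.92 in controls (-0.55 ± 0.30). For both, fluvastatin replicate 1 was clearly below the other 3 arrays and fluvastatin replicate 2 close to the controls. RPL3, which reaches towards the peptidyl transferase centre, gave -0.39 ± 0.19 on its brightest probe and 0.05 on the other.

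At the upper end, 0 members passed. RPS9, a 40S protein that binds early to the small-subunit rRNA, read 13.57 and 13.20 with fluvastatin, against 12.98 and 12.95 in controls. Its log2 fold change of 0.42 ± 0.19 (adjusted p = 0.168 by limma) was repeated at 0.45 on a second probe. RPL37 read 7.09 and 6.57 with fluvastatin, against 6.41 and 6.52 in controls (0.37 ± 0.22). Its other probe gave 0.39 but was near background, with detection p-values of 0.017 and 0.016 with fluvastatin and 0.066 and 0.27 in controls. That probe passed the filter through the fluvastatin arrays alone, so its value is no separate support. RPL13A, which also takes part in the silencing of inflammatory messages in interferon-treated myeloid cells, read 12.64 and 12.24 with fluvastatin, against 12.01 and 12.16 in controls (0.35 ± 0.20). RPL12, at the base of the stalk, read 14.25 and 13.87 with fluvastatin, against 13.81 and 13.69 in controls (0.31 ± 0.19). In RPS9, RPL13A and RPL12 both fluvastatin arrays lay above both controls, with replicate 1 the higher. RPS4X had a log2 fold change of 0.21 (95% interval -0.18 to 0.60) and RPS2 of 0.20 (-0.21 to 0.62).

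The stalk that recruits elongation factors is built on RPLP0 and carries pairs of RPLP1 and RPLP2. RPLP2 read 14.51 and 14.54 with fluvastatin, against 14.62 and 14.77 in controls, and its log2 fold change of -0.17 had a 95% interval of -0.55 to 0.22. RPLP1 gave -0.13 (-0.50 to 0.25) on its brightest probe, while its other probes gave 0.13 and 0.14. The sign for RPLP1 therefore depended on the probe. RPLP2 had 1 probe, which read 26890.6 and 24700.8 before normalization with fluvastatin, against 23858.8 and 24952.3 in controls, close to the top of each array's signals, and its interval does not cover compression there.

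RPL5 and RPL11 bind 5S rRNA together and, when they are not built into ribosomes, bind and inhibit MDM2. RPL5 read 12.38 and 12.64 with fluvastatin, against 12.87 and 12.92 in controls, a log2 fold change of -0.39 ± 0.17 (adjusted p = 0.160 by limma). RPL11 read 14.12 and 14.10 with fluvastatin, against 14.22 and 14.34 in controls, a log2 fold change of -0.17 ± 0.15 (adjusted p = 0.456 by limma). The fluvastatin arrays were the lower ones in both genes without passing the test.

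Among 40S proteins with known roles, RPS6, the substrate of S6 kinase, read 13.73 and 14.13 with fluvastatin, against 14.08 and 14.25 in controls, and the groups overlapped (-0.24, 95% interval -0.73 to 0.25). RPS26, at the channel where the mRNA leaves, read 11.24 and 11.55 with fluvastatin, against 11.76 and 11.93 in controls (-0.45 ± 0.18, adjusted p = 0.140 by limma). A much dimmer probe of RPS26 gave -1.02 (adjusted p = 0.0543 by limma). RPS19, the gene most often mutated in Diamond-Blackfan anaemia, had a log2 fold change of -0.07 (-0.44 to 0.30). RPS14, lost from 1 copy in the 5q- syndrome, gave 0.06 (-0.31 to 0.43). RPL41, which encodes one of the shortest ribosomal proteins, gave 0.01 (-0.36 to 0.39), although its second, dim probe gave -0.49.

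Probes of the same gene often disagreed in size. Of the 110 member probes kept, 8 fell, from 6 genes, and 0 rose (7.27%). Of all probes kept, 8.29% fell and 16.9% were called in either direction. The 3 genes that passed on a further probe but not on their brightest were RPL6, RPL9 and RPL13. RPL6 gave -1.07 ± 0.15 (adjusted p = 0.0140 by limma) on its dimmest probe, where the arrays read 9.28 and 9.27 with fluvastatin and 10.34 and 10.35 in controls, but -0.21 and -0.13 on brighter probes. RPL9 gave -0.82 (adjusted p = 0.0389 by limma) on its dimmest probe and -0.11 on its brightest. A probe of RPL9 between them in brightness gave -0.95 and did not pass (adjusted p = 0.103 by limma). RPL13 gave -0.67 (adjusted p = 0.0390 by limma) on its dimmer probe, against -0.07 on its brightest.

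Over the 31 genes with several probes kept, the dimmest probe was the more negative one in 17 and the less negative one in 14. Its median log2 fold change was -0.38, against -0.13 for the brightest probe, but the median difference within a gene was only -0.083. In 24 of the 31 genes all probes had the same sign and in 7 they did not. By brightness, 8 of the 30 member probes with a mean log2 value of 7 to 12 fell (26.7%, median log2 fold change -0.57), 0 of 73 at 12 or above (median -0.11) and 0 of 7 under 7 (median -0.03). Of the other named probes at 7 to 12, 11.2% fell and 22.2% were called in either direction, with a median of 0.00. Of those at 12 or above 5.08% fell, and of those under 7, 7.29% fell. The limits of these bands were not fixed beforehand, and the 8 member probes that fell came from 6 genes, so they are not independent. Probes of 1 gene can match different transcript variants or pseudogene copies, and which applies here was not tested.

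**Figure D4:**
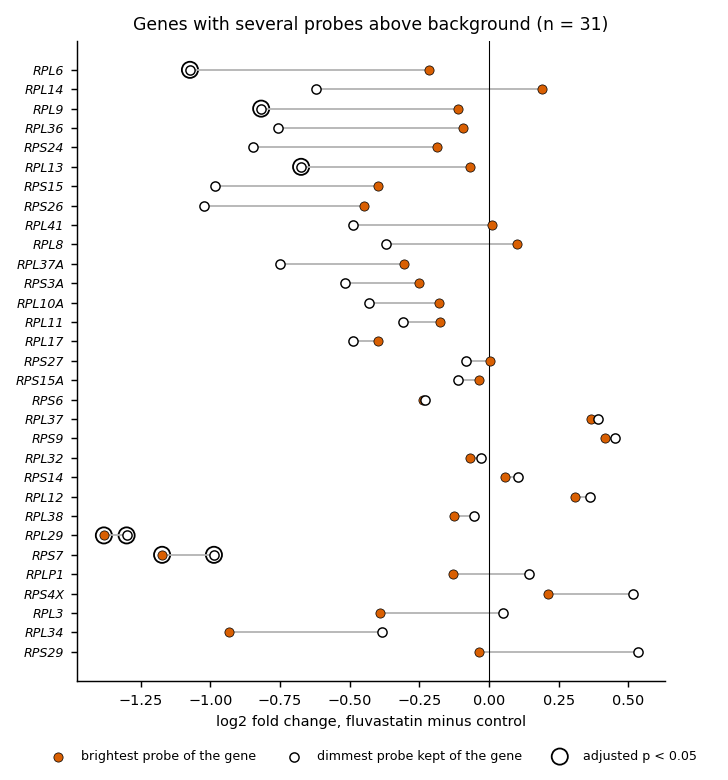
Log2 fold change, fluvastatin minus control, of the brightest (filled) and the dimmest (open) kept probe of the 31 ribosomal protein genes with several probes, with rings where the adjusted p was under 0.05. RPL29 and RPS7 fell on both probes, and RPL6, RPL9 and RPL13 only on the dimmest.

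The 2 fluvastatin arrays differed from each other more than the controls did. The median size of the difference was 0.16 between the fluvastatin arrays and 0.08 between the control arrays over the members, and 0.24 and 0.11 over all genes. Set against the mean of the controls, the members' median was -0.16 on fluvastatin replicate 1 and -0.07 on replicate 2. RPL7 showed the gap plainly, at -1.04 on replicate 1 and -0.01 on replicate 2, and RPS28 at -0.81 and 0.21. The brightest probes of the 67 members, 1 per gene, were summed as a share of the background-corrected signal of all kept probes. They gave 4.47% and 4.81% on the fluvastatin arrays, against 4.87% and 5.49% on the control arrays. The members' further probes were counted only in the whole. Both fluvastatin arrays were lower in this share, and the nearest fluvastatin and control arrays were closer to each other than the controls were.

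Genes around the ribosomal proteins were read from lists. Of 8 measured paralogs and fusion genes outside the symbol rule, 1 fell (12.5%, beside 9.65% of all genes). This was RPL22L1, a paralog of RPL22, at -1.03 ± 0.23 (adjusted p = 0.0357 by limma). RPL22 itself was at 0.02 (95% interval -0.42 to 0.46). FAU, which encodes the 40S protein eS30 fused to a ubiquitin-like protein, was at 0.01, and RPL36AL, a paralog of RPL36A, at 0.03. Of 16 genes with symbols of ribosomal protein pseudogenes, a list made after the values were seen, 0 passed in limma, beside 20.1% of all genes. Among these pseudogenes 3 had an unadjusted p under 0.05, where 40% of all genes did. These copies are close to identical to the parent genes, so their signals and those of the members cannot be assigned with certainty.

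Of 23 other measured RNAs with a TOP, 3 fell (13.0%, beside 9.65% of all genes), 0 rose and the median was 0.01. Those that fell were HNRNPA1, a splicing regulator (-1.43 ± 0.19, adjusted p = 0.0132 by limma), and the small nucleolar RNA host genes SNHG1 (-1.27) and SNHG8 (-0.95). The elongation factors EEF1A1 (0.01) and EEF2 (0.04) and the tumour protein TPT1 (0.08) did not pass. Of 16 regulators of TOP messages and of growth, 3 fell and 2 rose (31.25% called, beside 20.1% of all genes), with a median of -0.22. EIF4E, the cap-binding factor, fell by 1.46 on the log2 scale, LARP4 by 0.94 and MYC by 0.77. TSC1 (0.72) and TSC2 (0.90), which restrain mTOR, rose (adjusted p = 0.0227 to 0.0447 by limma over the regulators called). MTOR, RPTOR, MLST8, RHEB, RPS6KB1, RPS6KB2, EIF4EBP1 and EIF4EBP2 were among the 11 regulators that did not pass. LARP1 did not meet the detection filter and was not tested. The activity of mTOR was not measured.

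Genes for proteins that escort ribosomal proteins to the nucleolus or load them showed a larger share of calls than the ribosomal protein genes, a difference that was not tested. The 2 lists also differ in brightness, with a median log2 value of 8.96 for the carriers and 13.87 for the ribosomal proteins. Among genes that are not members, 9.11% passed at a mean log2 value of at least 12 and 20.7% below it. Of 16 measured carriers, 6 fell (37.5%, beside 9.65% of all genes), 0 rose and 10 did not pass. Their median log2 fold change was -0.55. PDCD2L, a relative of the RPS2 carrier PDCD2 (-1.63 ± 0.15), GRWD1, which binds RPL3 (-1.37), GNL3L (-1.13) and LTV1, a late 40S factor (-1.12), were among those that fell. Of 6 measured genes of the 5S particle and the ribosomal stress response, 3 fell and 1 rose. RRS1 (-2.53 ± 0.16, adjusted p = 0.00541 by limma), BRIX1 (-1.61) and RPF2 (-1.18), of which RRS1 and RPF2 in yeast load RPL5, RPL11 and 5S rRNA into the growing 60S subunit, fell. CDKN1A, an inhibitor of cyclin-dependent kinases, rose by 0.90. The share of calls among all genes was 20.1%, and counts from such short lists are given as descriptions.

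**Figure D5:**
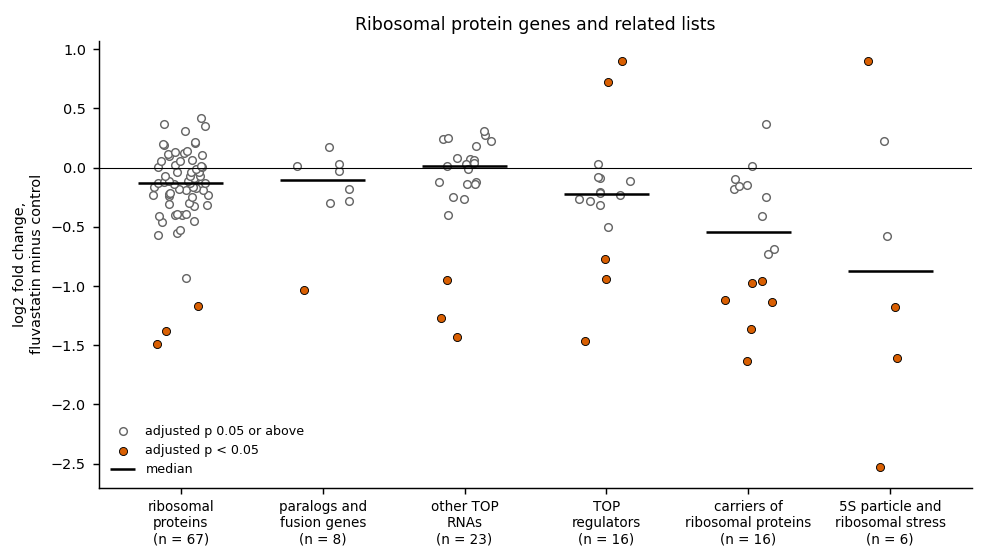
Log2 fold change, fluvastatin minus control, of the ribosomal protein genes and of 5 related lists, 1 point per gene, with list medians as lines and filled points where the adjusted p was under 0.05. The ribosomal proteins and the other TOP RNAs centre near 0, at -0.13 and 0.01, and the carriers at -0.55. The carriers were dimmer than the ribosomal proteins (median log2 value 8.96 against 13.87).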

How the data were processed

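Total RNA was converted to biotinylated cRNA for Illumina bead arrays, per the labels' protocols. The deposited signal table holds intensity values without normalization and a detection p-value for each, per the file headers. The authors' deposited log2 values have columns of nearly equal distribution; their package is not given in the sources used here, and the submitters' processing notes list R 3.1.0. Every sample column was mapped (0 left over).

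R 4.3.3 and the neqc function of limma 3.58.1 corrected the intensities (background inferred from detection p-values, normexp, offset of 16, quantile normalization, log2). Of 47231 probes, 21986 were kept, those detected (p under 0.05) on 2 or more of the 4 independent arrays. Groups were compared by lmFit and eBayes in a two-sided test, and p-values were adjusted by Benjamini-Hochberg over all kept probes. The fit had 2 residual and 3.72 prior degrees of freedom. The number of arrays limits the precision. Symbols came from the platform annotation, checked by gene identifier against RefSeq (0 changed); 30113 probes had 1 symbol, 8 several and 17110 none. Named members were the 6 lowest and 6 highest log2 fold changes plus 15 of known role (3 without a probe here and RPL10 not kept). Of each other list, up to 4 passing genes by p were named, and others as examples chosen after their values were seen. Members and lists were chosen with earlier results of these data known. The fit was run on simulated arrays with known changes, as a check that it returns their average size. That check does not show how often false calls arise in these data. Settings for background, offset, normalization, filter, probe choice, value source and arrays were varied.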

Additional observations from a re-analysis of the deposited data

How the results depend on the processing

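The count of 3 members past the threshold was 3 or 4, each time including RPL36A, RPL29 and RPS7, without background correction, with an offset of 50, under median scaling of all probes or of the probes detected on all 4 arrays, under cyclic loess, with a gene's probes averaged and with the authors' values. Of these settings, those with a count of 3 had 17.6% to 22.2% of all genes passing. Those with a count of 4 had 26.6% to 27.5%, beside 20.1% in the main fit. With dim probes left in the count was 0, where 9 members and 28.7% of genes had an unadjusted p under 0.05. There 9.06% of genes passed in limma. The count was 9 (8 lower, 1 higher) with all 5 deposited columns, where 45.5% of genes passed and control replicate 2 is counted as independent. Leaving out 1 array gave 0 to 18. The median of -0.13 was -0.026 with median scaling of all probes and -0.30 with median scaling of the detected probes, where the median of all genes was 0.22 and -0.05; relative to that shift both came to -0.25. It stayed between -0.17 and -0.07 when 1 array was left out. No member reached the scanner limit, so leaving out such members changed nothing. Of 308 values of 22 named members under other settings, 0 called values changed sign, 9 lost a call, 14 gained one and 7 uncalled values changed sign. No paired analysis was possible because the independent arrays of the 2 groups share replicate number 1 only. With 1 array left out, its lone partner is assumed to vary like the other group. Signals near background or near the top of the scale limit the sizes given.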
